A study of Mus musculus with 12 samples.

Results

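Hypoxia and glycolysis genes in TRAMP-C2 tumors were followed as a list of 33 mouse genes, out of 49315 gene identifiers counted in every tumor. The list was defined by function, and its rule used no measured value, although it was drawn up with earlier results of these data known. It holds Hif1a and Epas1, genes of α subunits of the hypoxia-inducible factors (HIF), but not Hif3a. It also holds oxygen-sensing hydroxylases, the glucose and lactate carriers and 12 enzymes of glycolysis. The rest are lactate dehydrogenase, pyruvate dehydrogenase kinase and well known targets of the HIFs. All 33 genes were found, all passed the filter on low counts in every comparison, and the lowest count of any of them in any tumor was 82.

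RNA was sequenced from 12 subcutaneous tumors of TRAMP-C2, a cell line from a prostate adenocarcinoma of the TRAMP transgenic mouse, grown in the flank of male C57BL/6J mice of 6 to 8 weeks. Injection into the tumor began near 200 mm3, tumors were taken on day 6, and each group had 3 tumors. The combination group received 3 doses of ADU-S100 and 2 doses of cyto-IL-15. The ADU-S100 group received 3 doses of 50 µg of this synthetic agonist of STING, the sensor of cyclic dinucleotides that switches on type I interferon. The cyto-IL-15 group received 2 doses of 10 µg of interleukin-15 carrying a lipid peptide that anchors it to cell membranes, and the HBSS group received 3 doses of 50 µl of the buffered salt vehicle. All groups carried the same tumor line and the same kind of host, so the line is the only model here, and the tumors come from transplanted cells and not from a prostate.

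When oxygen falls, prolyl hydroxylases of the Egln family stop marking HIF1α and HIF2α (encoded by Hif1a and Epas1) for destruction by the von Hippel-Lindau complex, and the stabilized factors bind short ACGTG or GCGTG sites beside their targets. The targets raise glucose uptake and glycolysis, divert pyruvate away from mitochondria, export lactate and protons, and signal for new vessels. HIF1α is also raised by inflammatory signals in myeloid cells, and much of its control is on the protein, so transcript levels of the targets rather than of Hif1a itself are the usual readout of the pathway in tumors.

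Total counts ran from 48772204 to 103700199 per tumor. Tumor 13 (cyto-IL-15) and tumor 28LL (combination) stood apart: their log2 levels correlated with those of other tumors at r = 0.899 to 0.958, whereas the other 10 tumors correlated among themselves at r = 0.970 to 0.994, so values that turned or moved by over 1.5 times without either are given both ways below for the genes described in full. The tissue label was checked against 10 epithelial and prostate markers, which took 0.00373 to 0.00597% of counts in the combination tumors, 0.00400 to 0.00577% in the ADU-S100 tumors, 0.00447 to 0.0560% in the cyto-IL-15 tumors and 0.00506 to 0.0216% in the HBSS tumors; the prostate gene Pbsn was at or near 0 in every tumor. Epithelial genes were close to absent in most tumors, with Krt8, a keratin of prostate epithelium, at 2.15 to 7.66 CPM (counts scaled to a common library total) in 10 of the 12 tumors, 83.6 CPM in cyto-IL-15 tumor 13 and 145 CPM in HBSS tumor 22LL. Skeletal muscle fiber genes (20 markers) took 0.0127 to 0.651% of counts in the combination tumors, 0.0269 to 0.286% in the ADU-S100 tumors and 0.00157 to 0.142% in the cyto-IL-15 tumors, against 0.00438 to 0.00686% in the HBSS tumors. Of the 20, 5 had 0 counts in tumor 13 and 3 in HBSS tumor 19. These are whole pieces of tissue, so fewer cells of a type and less RNA per cell cannot be told apart.

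The core letters that HIF recognizes were common in the DNA in front of these genes. Promoters (250 bases before to 50 after each RefSeq transcript start, mouse build GRCm38.p6) were held for 29 of the 33 genes, and in 27 of them (93.1%) at least 1 window had ACGTG or GCGTG on either strand, against 46.7% of 27025 genes with such windows; ACGTG alone was found in 72.4% of the listed genes and in 21.8% of all genes. Counted by window, 76.2% of 42 windows of the listed genes and 43.8% of 32851 windows of all genes had a match. The listed genes' windows were also richer in CpG, with a median of 23 against 7 in all windows, and both motifs hold a CpG. The list holds well known HIF targets by its definition, so the excess of matches is not an independent result. Below are the 150 bases that end at the transcript start of Car9, the gene that passed the test in ADU-S100 tumors, and of 3 others chosen after their values were seen to show the range of arrangements: Slc16a3, Ldha and Bnip3. Capitals mark ACGTG or GCGTG and their reverse complements CACGT and CACGC.
Car9 promoter, chr4:43506876-43507025, plus strand: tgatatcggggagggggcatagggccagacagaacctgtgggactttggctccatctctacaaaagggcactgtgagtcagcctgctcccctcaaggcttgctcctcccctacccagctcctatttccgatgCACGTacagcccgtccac
Slc16a3 promoter, chr11:120948917-120949066, plus strand: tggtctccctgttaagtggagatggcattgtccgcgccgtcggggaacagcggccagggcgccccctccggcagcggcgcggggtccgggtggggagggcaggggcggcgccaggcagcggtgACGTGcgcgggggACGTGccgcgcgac
Ldha promoter, chr7:46845654-46845803, plus strand: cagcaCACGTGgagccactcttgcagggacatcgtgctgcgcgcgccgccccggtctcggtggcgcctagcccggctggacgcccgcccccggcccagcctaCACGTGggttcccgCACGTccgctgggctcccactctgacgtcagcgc
Bnip3 promoter, chr7:138909507-138909656, minus strand: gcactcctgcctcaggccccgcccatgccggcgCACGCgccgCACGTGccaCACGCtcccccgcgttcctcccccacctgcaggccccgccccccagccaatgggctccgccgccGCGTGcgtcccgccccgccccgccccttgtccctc
Each stretch ends at 1 RefSeq transcript start. By the gene coordinates of the deposited tables, those of Slc16a3 and Ldha lie inside the gene, downstream of an earlier start, and those of Car9 and Bnip3 overlap the start of the gene. Ldha has a second window in RefSeq, not shown, that holds no ACGTG but has 2 matches of GCGTG or its reverse complement. Car9 had a single site that begins 18 bases before the start, Slc16a3 had a pair that begin 27 and 14 bases before it, and Ldha had CACGTG, which reads as ACGTG on both strands, at 2 places plus 1 further CACGT. Bnip3 had 4 separate matches, of which 1 was CACGTG, and 3 of them lay close together. A match is a description of the letters only.

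Levels across genes were compared in TPM (counts divided by gene length and scaled to a common total). Pkm, the last enzyme of glycolysis, was the most abundant of the 33 with a 12-tumor mean of 1374 TPM, followed by Gapdh at 1075, Pgk1 at 816, Eno1 at 811 and Ldha at 619 TPM. Within glycolysis the early, regulated steps were the least abundant: hexokinases Hk1 and Hk2 averaged 66.5 and 46.0 TPM, and the phosphofructokinases Pfkl and Pfkp averaged 160.5 and 23.1 TPM. The scarcest member was Car9 at 5.63 TPM, and Ankrd37, Pdk1 and Adm averaged 16.8, 21.6 and 28.3 TPM. From the lowest to the highest of the 12 tumors, levels in CPM spanned 1.51-fold for Hk1, the steadiest gene, 6.02-fold for Pdk1, 7.85-fold for Epas1 and 28.8-fold for Adm.

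To ask whether the STING agonist changed this program, ADU-S100 tumors were compared with HBSS tumors. The carbonic anhydrase gene Car9 rose, and the other 32 genes did not pass the test, although 30 of the 33 had a log2 fold change above 0 (90.9%, against 53.1% of all genes tested) and all 12 glycolytic enzymes did. The median log2 fold change was 0.32 over the 33 genes and 0.03 over all 18911 genes tested. Single tumors moved these values: the median was 0.12 without ADU-S100 tumor 22LR and 0.13 without HBSS tumor 19, each with 25 genes above 0, and 0.52 without HBSS tumor 22R, with 32 above 0. A gene was called at a Benjamini-Hochberg adjusted p under 0.05 in edgeR's quasi-likelihood test over all genes with an absolute log2 fold change above 1. By this rule 1 of 33 genes (3.03%) rose, where 520 of all genes (2.75%) rose and 147 (0.777%) fell, and with no fold threshold the share of all genes was 3.78% higher and 2.41% lower. Among the 33, 5 genes (15.2%) had every ADU-S100 tumor above every HBSS tumor and none had every one below, against 15.8% and 15.4% of all genes. The share of single genes called higher, or wholly above the HBSS tumors, was therefore near that of the genome. So was the share at an unadjusted p under 0.05 (7 of 33, 21.2%, against 23.9%). The share wholly below was not, at 0% against 15.4% of all genes.

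**Figure D1:**
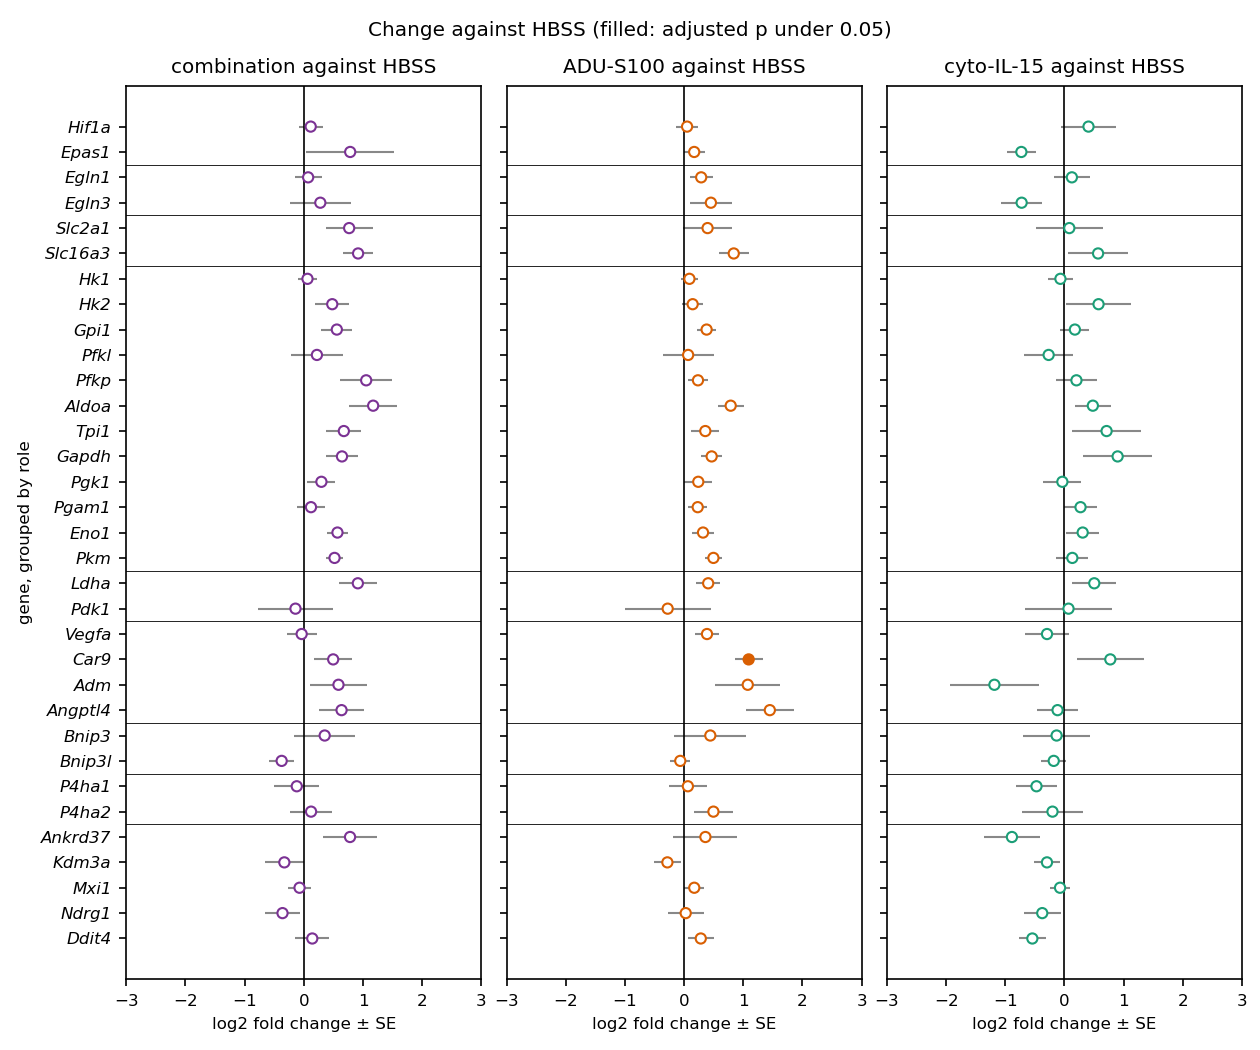
Log2 fold change (points) and its standard error (bars) of each of the 33 genes in combination, ADU-S100 and cyto-IL-15 tumors, each against HBSS tumors (3 tumors a group, edgeR), with genes ordered by role. Car9 under ADU-S100 is the single filled point, and all 12 glycolytic enzymes from Hk1 to Pkm lie right of 0 in the combination and ADU-S100 panels.

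Car9 encodes a membrane carbonic anhydrase that handles the acid of glycolytic cells and is among the most HIF-dependent genes known. It measured 4.90, 5.40 and 7.26 CPM in the ADU-S100 tumors, against 2.16, 3.18 and 2.98 in the HBSS tumors, so the groups did not overlap, and the fitted change was 2.13-fold (log2 fold change 1.09, SE 0.24, adjusted p = 0.0332, edgeR). The counts behind it were small for this list, 358, 556 and 649 in the ADU-S100 tumors and 132, 234 and 271 in the HBSS tumors. Car9 overlaps an antisense transcript, Gm12454, that had 1139 counts over the 12 tumors against 3890 for Car9, and since the strand setting of the counting is not given in the sources used here, the reads of the pair cannot be told apart. Without ADU-S100 tumor 18R or 22LR, or without HBSS tumor 19, 22R or 22LL, the adjusted p lay between 0.0750 and 0.105 and the call was lost, while the log2 fold change stayed between 0.90 and 1.18. With all 12 tumors in 1 fit, whose shared spread includes tumors 13 and 28LL, the log2 fold change was 1.09 with an adjusted p of 0.534, and with the muscle marker level added to that fit as a covariate it was 1.67 with an adjusted p of 0.410.

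The 3 secreted factors of the list were also above 0, without passing the test. Angptl4, a secreted inhibitor of lipoprotein lipase induced by hypoxia and by fatty acid receptors, measured 118, 115 and 208 CPM in the ADU-S100 tumors, against 38.3, 87.2 and 38.3 in the HBSS tumors, with every ADU-S100 tumor above every HBSS tumor (log2 fold change 1.45, SE 0.41, adjusted p = 0.0995, edgeR). Removing HBSS tumor 22R, the highest of its group, gave Angptl4 a log2 fold change of 1.94 and an adjusted p of 0.0257. Adm, the vasodilator peptide adrenomedullin, measured 17.6, 20.4 and 38.1 CPM in the ADU-S100 tumors, against 7.12, 22.1 and 7.27 in the HBSS tumors; HBSS tumor 22R again lay among the treated tumors, so the groups overlapped (log2 fold change 1.08, SE 0.55, adjusted p = 0.304, edgeR). Vegfa, the main endothelial growth factor, measured 109, 96.6 and 149 CPM in the ADU-S100 tumors, against 75.4, 114 and 84.5 in the HBSS tumors, and overlapped in the same way (log2 fold change 0.39, SE 0.20, adjusted p = 0.274, edgeR).

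**Figure D2:**
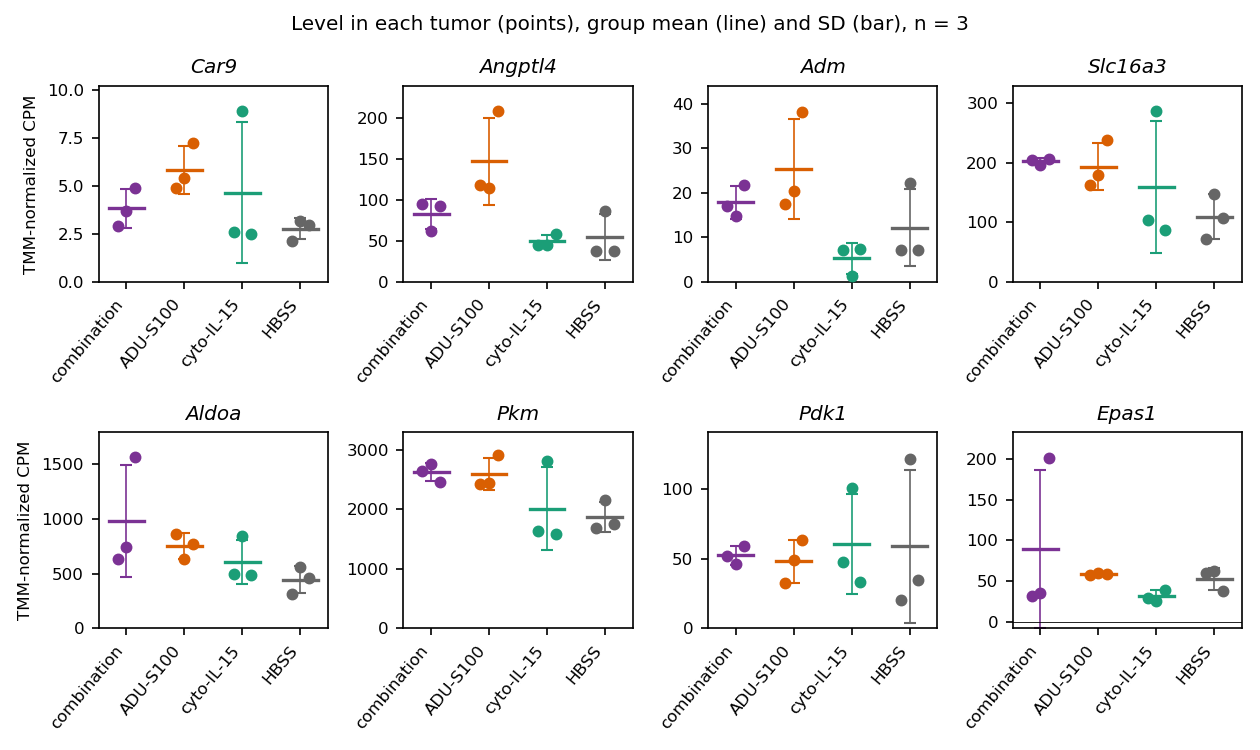
CPM of Car9, Angptl4, Adm, Slc16a3, Aldoa, Pkm, Pdk1 and Epas1 in each tumor (points), with the group mean (line) and standard deviation (bar) for 3 tumors a group, each panel on its own linear axis. Every ADU-S100 tumor lies above every HBSS tumor for Car9, Angptl4, Slc16a3, Aldoa and Pkm, while HBSS tumor 22R reaches the treated range for Adm and is the highest of all 12 for Pdk1.

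Both plasma membrane carriers were compared next. Slc16a3, the lactate exporter of glycolytic cells (MCT4), measured 163, 179 and 238 CPM in the ADU-S100 tumors, against 72.4, 148 and 108 in the HBSS tumors, and did not overlap (log2 fold change 0.84, SE 0.25, adjusted p = 0.0975, edgeR). The glucose carrier Slc2a1 (GLUT1) measured 74.4, 84.5 and 133 CPM in the ADU-S100 tumors, against 43.8, 121 and 59.4 in the HBSS tumors; here HBSS tumor 22R exceeded 2 of the ADU-S100 tumors (log2 fold change 0.40, SE 0.42, adjusted p = 0.607, edgeR).

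Among the enzymes, Aldoa and Pkm separated the groups. Aldoa, the aldolase of muscle and of most growing cells, measured 857, 629 and 768 CPM in the ADU-S100 tumors, against 313, 559 and 455 in the HBSS tumors (log2 fold change 0.79, SE 0.22, adjusted p = 0.0726, edgeR). Pkm, pyruvate kinase, measured 2427, 2441 and 2907 CPM in the ADU-S100 tumors, against 1689, 2151 and 1746 in the HBSS tumors, and had the smallest standard error of the separated genes (log2 fold change 0.50, SE 0.14, adjusted p = 0.0691, edgeR). The other 10 enzymes overlapped between the groups, with log2 fold changes between 0.07 for Pfkl and 0.47 for Gapdh. ADU-S100 tumor 17LL, which had the most Aldoa of its group, also had the most muscle marker RNA of its group (0.286% of counts), and without it the log2 fold change of Aldoa was 0.65 (adjusted p = 0.184). Counts of Aldoa, Gapdh, Pgk1, Pgam1 and Ldha are uncertain to the extent that reads were shared with their pseudogenes, 1 or 2 of which are named in the annotation for each.

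The pyruvate branch did not separate. Ldha, which turns pyruvate to lactate, measured 561, 603 and 768 CPM in the ADU-S100 tumors, against 357, 619 and 498 in the HBSS tumors (log2 fold change 0.41, SE 0.20, adjusted p = 0.259, edgeR). Pdk1, the kinase that shuts pyruvate out of the citric acid cycle, had the widest HBSS spread of all 33 genes, at 32.4, 49.0 and 63.5 CPM in the ADU-S100 tumors, against 20.3, 122 and 35.2 in the HBSS tumors, with a fold change below 0 and the largest standard error of the list (log2 fold change -0.28, SE 0.72, adjusted p = 0.853, edgeR). HBSS tumor 22R had more Pdk1 than any treated tumor. Kdm3a, a histone demethylase induced by HIF, was also below 0, at 62.8, 81.6 and 109 CPM in the ADU-S100 tumors, against 78.5, 133 and 98.9 in the HBSS tumors (log2 fold change -0.28, SE 0.23, adjusted p = 0.5004, edgeR). Bnip3l, a mitophagy receptor, measured 124, 129 and 171 CPM in the ADU-S100 tumors, against 137, 187 and 126 in the HBSS tumors (log2 fold change -0.07, SE 0.17, adjusted p = 0.852, edgeR). Groups overlapped in all of these.

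None of the genes of the sensing machinery passed the test. Hif1a measured 167, 213 and 286 CPM in the ADU-S100 tumors, against 196, 261 and 192 in the HBSS tumors (log2 fold change 0.05, SE 0.19, adjusted p = 0.901, edgeR), and Epas1 had a log2 fold change of 0.17. The hydroxylase genes Egln1 and Egln3, both HIF targets that feed back on the pathway, were at 0.29 and 0.45. Of the collagen prolyl hydroxylases, P4ha2 was at 0.50 and P4ha1 at 0.06, and of the intracellular targets Ankrd37 was at 0.36, Ddit4, an inhibitor of mTOR signaling, at 0.28, Mxi1, an antagonist of Myc, at 0.17 and Ndrg1 at 0.03; the mitophagy receptor Bnip3 was at 0.44 with a standard error of 0.61. Their roles differ, but all belong to the response to low oxygen, and none passed the test in edgeR.

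Combination tumors were compared with the same 3 HBSS tumors, so the comparisons share their controls. No gene of the 33 was called, and none of 18565 genes tested was (0%), with 3374 genes (18.2%) and 6 of the 33 (18.2%) at an unadjusted p under 0.05 in edgeR; DESeq2 called none of the 33 but 5.5% of all genes, and limma's voom called 1 of the 33 higher (3.03%), Slc16a3, against 3.47% of all genes. With no fold threshold, voom passed 5 of the 33 (Slc16a3, Aldoa, Eno1, Pkm and Ldha) and DESeq2 passed 0. The share of all genes by that rule was not counted for these tools. By the rule with a fold threshold, edgeR without tumor 28LL called 0 of the 33, and 184 higher and 63 lower of 19000 genes. The log2 fold change was above 0 for 26 of 33 genes (78.8%, against 50.8% of all genes) and for all 12 enzymes, with a median of 0.35 against 0.01. Without HBSS tumor 19 the median was 0.14 with 20 genes above 0, and without HBSS tumor 22R it was 0.66 with 30 above 0. The lowest combination tumor exceeded the highest HBSS tumor in 5 genes (15.2%, against 13.9% of all genes): Slc16a3, Aldoa, Pkm, Eno1 and Ldha. In 1 gene (3.03%, against 16.4%), Bnip3l, every combination tumor lay below.

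Slc16a3 was uniform in the treated group, at 204, 197 and 206 CPM in the combination tumors, against 72.4, 148 and 108 in the HBSS tumors (log2 fold change 0.92, SE 0.26, adjusted p = 0.195, edgeR). Pkm measured 2640.3, 2756 and 2460.3 CPM in the combination tumors, against 1689, 2151 and 1746 in the HBSS tumors (log2 fold change 0.52, SE 0.15, adjusted p = 0.198, edgeR). Eno1, the enolase of most tissues, measured 1834, 1780.0 and 1499 CPM in the combination tumors, against 986, 1406 and 1122 in the HBSS tumors (log2 fold change 0.57, SE 0.18, adjusted p = 0.214, edgeR). Tumor 28LL was the lowest combination tumor for Eno1 and Pkm, and Slc16a3 differed little between the combination tumors. Ldha measured 653, 799.9 and 1267 CPM in the combination tumors, against 357, 619 and 498 in the HBSS tumors (log2 fold change 0.91, SE 0.32, adjusted p = 0.229, edgeR), and Aldoa measured 628, 740.4 and 1559 CPM in the combination tumors, against 313, 559 and 455 in the HBSS tumors (log2 fold change 1.17, SE 0.40, adjusted p = 0.229, edgeR). For both, tumor 28LL, with 0.651% of its counts in muscle markers, was the highest, and without it the log2 fold change was 0.59 for Ldha and 0.65 for Aldoa.

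Tumor 28LL decided other values of the combination group. Epas1, the HIF2α gene, which endothelial cells and macrophages express highly, measured 32.2, 34.9 and 201 CPM in the combination tumors, against 60.1, 61.9 and 37.6 in the HBSS tumors; its log2 fold change of 0.78 turned to -0.64 without 28LL, and neither value passed the test (adjusted p = 0.577 and 0.156, edgeR). Tumor 28LL also had the highest endothelial marker share, 0.139% of counts against 0.0282 to 0.109% in the other 11, and the highest macrophage marker share, 0.734%; their part in Epas1 was not tested. Pfkp, the platelet-type phosphofructokinase, measured 60.6, 80.6 and 191 CPM in the combination tumors, against 45.8, 63.6 and 54.3 in the HBSS tumors, with a log2 fold change of 1.05 that was 0.39 without 28LL; it overlaps Pitrm1 on the opposite strand.

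The gene called under ADU-S100, Car9, measured 2.91, 3.70 and 4.90 CPM in the combination tumors, against 2.16, 3.18 and 2.98 in the HBSS tumors, and the groups overlapped (log2 fold change 0.50, SE 0.32, adjusted p = 0.423, edgeR; 0.27 without 28LL). The glucose carrier Slc2a1 measured 96.3, 123 and 154 CPM in the combination tumors, against 43.8, 121 and 59.4 in the HBSS tumors, with 22R inside the treated range (log2 fold change 0.77, SE 0.40, adjusted p = 0.343, edgeR). Of the secreted factors, Angptl4 was at a log2 fold change of 0.64, Adm at 0.59 and Vegfa at -0.04, none past the test.

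On the low side, Bnip3l measured 125, 126 and 90.0 CPM in the combination tumors, against 137, 187 and 126 in the HBSS tumors, with group ranges that touched at their edges (log2 fold change -0.37, SE 0.21, adjusted p = 0.373, edgeR). Ndrg1, a stress-induced cytoplasmic protein, measured 185, 183 and 128 CPM in the combination tumors, against 153, 312 and 184 in the HBSS tumors (log2 fold change -0.36, SE 0.30, adjusted p = 0.526, edgeR), and Kdm3a measured 91.6, 103 and 48.0 CPM in the combination tumors, against 78.5, 133 and 98.9 in the HBSS tumors (log2 fold change -0.33, SE 0.32, adjusted p = 0.592, edgeR). For all 3, 28LL was the lowest tumor and HBSS tumor 22R the highest, and without 28LL the log2 fold changes were -0.23 for Bnip3l, -0.21 for Ndrg1 and -0.06 for Kdm3a. Bnip3l has 1 named pseudogene, so its counts are uncertain to that extent.

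No difference between cyto-IL-15 and HBSS tumors passed the test in this list. No gene was called among the 33 or among 18594 tested (0%; 706 genes and 1 of the 33 at an unadjusted p under 0.05 in edgeR), 16 genes had a log2 fold change above 0 (48.5%, against 54.7% of all genes) and 17 below, and the median was -0.04 against 0.04 (without tumor 13, 2 above 0 and a median of -0.33; without HBSS tumor 22R, 23 above 0 and a median of 0.32). Without tumor 13, edgeR called 0 of the 33, and 177 higher and 2 lower of 19517 genes. DESeq2 and voom called none of the 33 either, where they called 0.633% and 0.0108% of all genes. None separated the groups, where 4.38% of all genes lay higher and 6.17% lower in every cyto-IL-15 tumor. Epas1 had the smallest unadjusted p, at 29.8, 25.6 and 39.8 CPM in the cyto-IL-15 tumors, against 60.1, 61.9 and 37.6 in the HBSS tumors (log2 fold change -0.73, SE 0.25, adjusted p = 0.898, edgeR). Ddit4 measured 78.5, 66.7 and 89.7 CPM in the cyto-IL-15 tumors, against 117, 146 and 83.5 in the HBSS tumors (log2 fold change -0.54, SE 0.23, adjusted p = 0.898, edgeR), and Egln3 measured 70.0, 46.1 and 65.9 CPM in the cyto-IL-15 tumors, against 63.4, 154 and 88.2 in the HBSS tumors (log2 fold change -0.72, SE 0.34, adjusted p = 0.898, edgeR). In all 3 genes the lowest HBSS tumor lay below the highest cyto-IL-15 tumor, and HBSS tumor 22R was the highest of both groups.

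Of the genes above 0, the 3 with the smallest p rested mainly on tumor 13. Gapdh, the classical glycolytic housekeeping enzyme, measured 903, 3759 and 986 CPM in the cyto-IL-15 tumors, against 796, 1071 and 1214 in the HBSS tumors (log2 fold change 0.90, SE 0.59, adjusted p = 0.898, edgeR). Car9 measured 2.62, 8.90 and 2.49 CPM in the cyto-IL-15 tumors, against 2.16, 3.18 and 2.98 in the HBSS tumors (log2 fold change 0.77, SE 0.57, adjusted p = 0.898, edgeR), and Aldoa measured 499, 837 and 485 CPM in the cyto-IL-15 tumors, against 313, 559 and 455 in the HBSS tumors (log2 fold change 0.48, SE 0.31, adjusted p = 0.898, edgeR). Tumors 9R and 20LL lay inside or close to the HBSS range in all 3. Without tumor 13 the log2 fold changes were -0.11 for Gapdh, -0.11 for Car9 and 0.17 for Aldoa, and with the 10 tumors other than 13 and 28LL in 1 fit, 2 of the 33 genes had a log2 fold change above 0.

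ADU-S100 tumors were then set against cyto-IL-15 tumors. No listed gene was called, where 16 of 18708 genes (0.0855%) were called higher; DESeq2 on the same 6 tumors called 3 of the 33 higher (Egln3, Adm and Angptl4), against 1.11% of all genes, and voom called 1 (Egln3), against 0.748%. In edgeR 7 of the 33 (21.2%, against 7.85% of all genes) had an unadjusted p under 0.05. The log2 fold change was above 0 for 23 genes (69.7%, against 46.3% of all genes), with a median of 0.24 against -0.04 over all genes. Without tumor 13 it was above 0 for 32 genes with a median of 0.60, and the median was between 0.08 and 0.10 without 22LR, 9R or 20LL. In 7 of the 33 (21.2%, against 9.3% of all genes) every ADU-S100 tumor lay above every cyto-IL-15 tumor, and in none did every one lie below (7.42% of all genes). The 7 were Epas1, Egln3, Adm, Angptl4, P4ha1, Ankrd37 and Ddit4, all of them HIF pathway genes other than glycolytic enzymes. In 5 of the 7 (Epas1, Egln3, Adm, Ankrd37 and Ddit4) tumor 13 was the lowest of all 12 tumors, and for Angptl4 it was level with 9R.

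Angptl4 measured 118, 115 and 208 CPM in the ADU-S100 tumors, against 45.4, 45.4 and 58.1 in the cyto-IL-15 tumors (log2 fold change 1.54, SE 0.26, adjusted p = 0.199, edgeR). Adm measured 17.6, 20.4 and 38.1 CPM in the ADU-S100 tumors, against 7.19, 1.32 and 7.32 in the cyto-IL-15 tumors (log2 fold change 2.24, SE 0.65, adjusted p = 0.559, edgeR), and without tumor 13 its log2 fold change was 1.81. Egln3 measured 97.2, 138 and 179 CPM in the ADU-S100 tumors, against 70.0, 46.1 and 65.9 in the cyto-IL-15 tumors (log2 fold change 1.15, SE 0.26, adjusted p = 0.379, edgeR). All 3 are strongly oxygen-regulated, and in each the lowest ADU-S100 tumor exceeded the highest cyto-IL-15 tumor. Vegfa measured 109, 96.6 and 149 CPM in the ADU-S100 tumors, against 50.9, 117 and 51.6 in the cyto-IL-15 tumors (log2 fold change 0.64, SE 0.38, adjusted p = 0.645, edgeR). Tumor 13 was the sole cyto-IL-15 tumor in the ADU-S100 range of Vegfa, and without it Vegfa was called (log2 fold change 1.21, adjusted p = 0.0331, edgeR), together with 143 of 19660 genes higher (0.727%).

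Combination tumors against cyto-IL-15 tumors gave no call among the 33 or among all 18619 genes tested (0%, with 926 genes and 4 of the 33 at an unadjusted p under 0.05 in edgeR), whereas DESeq2 called 1 of the 33 higher (3.03%, against 0.508% of all genes), Ankrd37, and voom called none of the 33 and 0% of all genes. The log2 fold change was above 0 for 23 of the 33 (69.7%, against 48.2% of all genes) with a median of 0.33, and without tumor 13 for 31 with a median of 0.70. Every combination tumor lay above every cyto-IL-15 tumor in 3 genes (9.09%, against 5.89% of all genes), and below in none (6.87%). Ankrd37, an ankyrin-repeat protein known mainly as a HIF target, measured 11.6, 14.3 and 12.7 CPM in the combination tumors, against 4.60, 3.27 and 4.35 in the cyto-IL-15 tumors (log2 fold change 1.67, SE 0.30, adjusted p = 0.785, edgeR); it overlaps the genes Ufsp2 and Lrp2bp on the opposite strand. Adm and Angptl4 were the others, with log2 fold changes of 1.77 and 0.76.

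Between the combination and ADU-S100 alone no gene of the list passed the test. No gene was called among 18689 (0%; 802 genes and 1 of the 33 at an unadjusted p under 0.05 in edgeR), 17 of the 33 had a log2 fold change above 0 and 16 below, DESeq2 and voom called none of the 33 (and 0.0108% and 0% of all genes), and the median was 0.02. Over all genes 52.9% had a log2 fold change above 0, and the median was also 0.02. Without ADU-S100 tumor 22LR the median over the 33 was 0.21. None lay higher in every combination tumor (4.51% of all genes), and 2 (6.06%, against 6.27%) lay lower. These were Angptl4, at 94.8, 62.0 and 92.3 CPM in the combination tumors, against 118, 115 and 208 in the ADU-S100 tumors (log2 fold change -0.81, SE 0.29, adjusted p = 0.884, edgeR), and P4ha2, at 67.3, 63.6 and 51.8 CPM in the combination tumors, against 73.0, 73.7 and 91.4 in the ADU-S100 tumors (log2 fold change -0.37, SE 0.17, adjusted p = 0.884, edgeR). The interaction, which asks whether adding cyto-IL-15 to ADU-S100 shifted a gene by another amount than cyto-IL-15 alone did, was called for none of 20132 genes (0%) on all 12 tumors, and 461 genes but none of the 33 had an unadjusted p under 0.05. The median interaction term over the 33 was -0.02 with all tumors, 0.32 without tumor 13 and -0.31 without HBSS tumor 22R, so its sign rested on single tumors. The standard errors of log2 fold changes over the 33 genes ran from 0.14 to 0.72 in ADU-S100 against HBSS, from 0.15 to 0.75 in combination against HBSS and from 0.17 to 0.75 in cyto-IL-15 against HBSS, so shifts of the size of the medians were not detectable gene by gene.

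**Figure D3:**
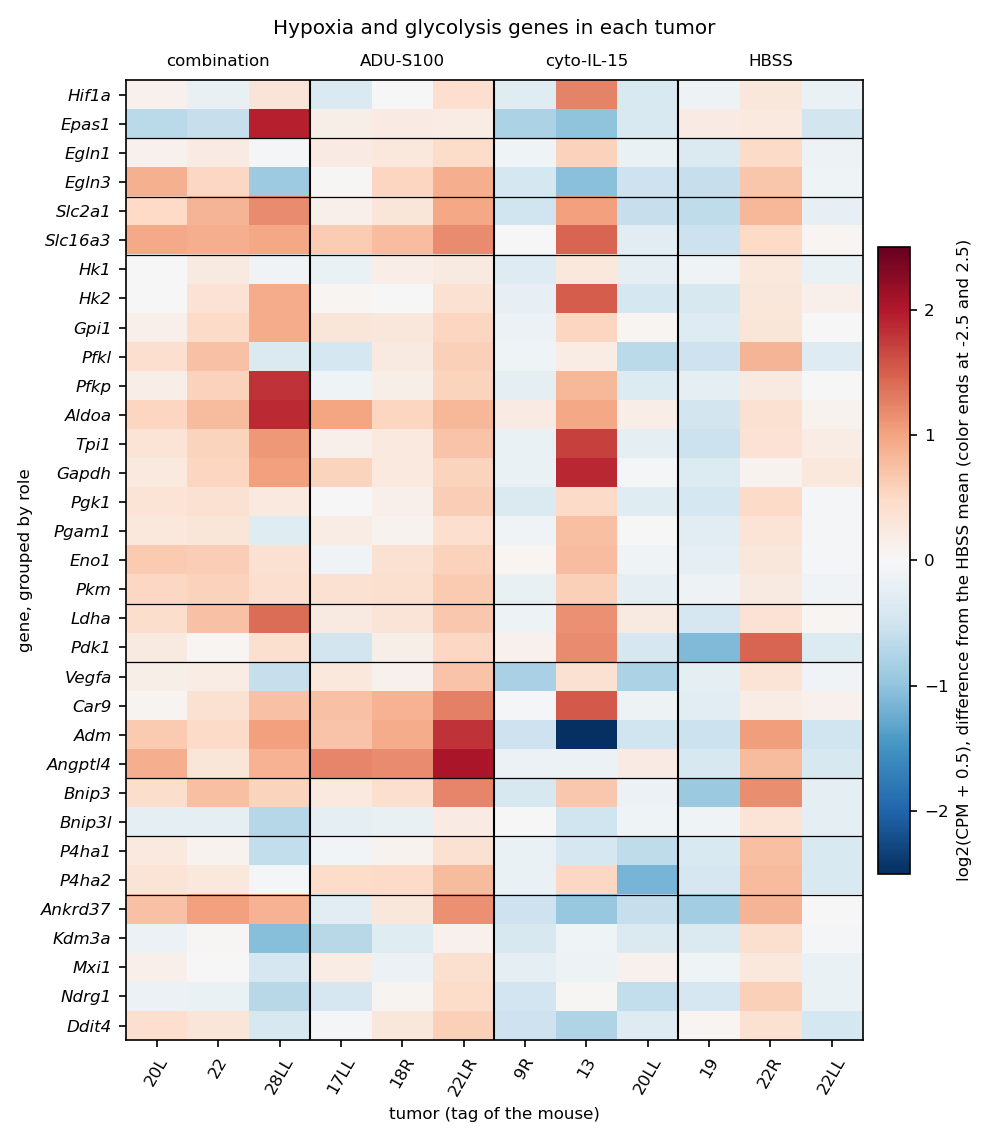
Log2 of CPM (0.5 added) of the 33 genes in each of the 12 tumors, shown as the difference from the mean of the 3 HBSS tumors; red is higher and blue lower, columns are tumors by group and lines separate roles. HBSS tumor 22R is red in almost every row, tumors 13 and 28LL are red for many enzymes and blue for several other targets, and ADU-S100 tumor 22LR is red throughout. The enzyme gene Pgam1 is blue in 28LL, its lowest tumor of the 12.

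The 33 genes also varied together between tumors of the same treatment. HBSS tumor 22R was the highest HBSS tumor for 32 of the 33 genes (97.0%, against 37.0% of all 20132 genes that passed the filter), and HBSS tumor 19 was the lowest for 27 (81.8%, against 31.2%). Between these vehicle tumors the median gene of the list differed by 0.79 on the log2 scale, against 0.01 over all genes, and 12 genes (36.4%, against 6.38%) were more than 2-fold higher in 22R. Pdk1 differed most, at 122 CPM in 22R and 20.3 CPM in 19, and Bnip3, a mitophagy receptor, measured 91.8 and 21.03 CPM. The exception to 22R as the highest was Gapdh, which was highest in 22LL. In the ADU-S100 group the same list set 1 tumor apart: 22LR was the highest for 30 of 33 genes (90.9%, against 34.7% of all genes). Neither tumor was set apart in any comparison by this pattern, and size, perfusion and necrosis of single tumors were not analysed here.

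Enzymes and other targets parted in several tumors. The enzymes were the higher part in 13 and 28LL, and the other targets were the higher part in 22R and 22LR. The 12 enzymes with Ldha, and 18 other genes induced by HIF (all members other than these, Hif1a and Epas1), were each averaged as log2 differences from the 12-tumor mean. In HBSS tumors the averages moved together, with enzymes at -0.60 and other targets at -0.57 in 19, enzymes at -0.26 and other targets at -0.32 in 22LL, and enzymes at 0.08 and other targets at 0.54 in 22R. Tumor 13 had the highest enzyme average of all, 0.63, with other targets at -0.08, and 28LL had enzymes at 0.46 and other targets at -0.05. ADU-S100 tumor 22LR had the highest average of other targets, 0.72, with enzymes at 0.31. By group, the enzyme average was 0.26 ± 0.20 in combination tumors, 0.06 ± 0.21 in ADU-S100 tumors, -0.06 ± 0.60 in cyto-IL-15 tumors and -0.26 ± 0.34 in HBSS tumors (SD, n = 3 each), and that of the other targets was 0.13 ± 0.16 in combination tumors, 0.32 ± 0.36 in ADU-S100 tumors, -0.33 ± 0.23 in cyto-IL-15 tumors and -0.12 ± 0.58 in HBSS tumors. No test was run on these averages.

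**Figure D4:**
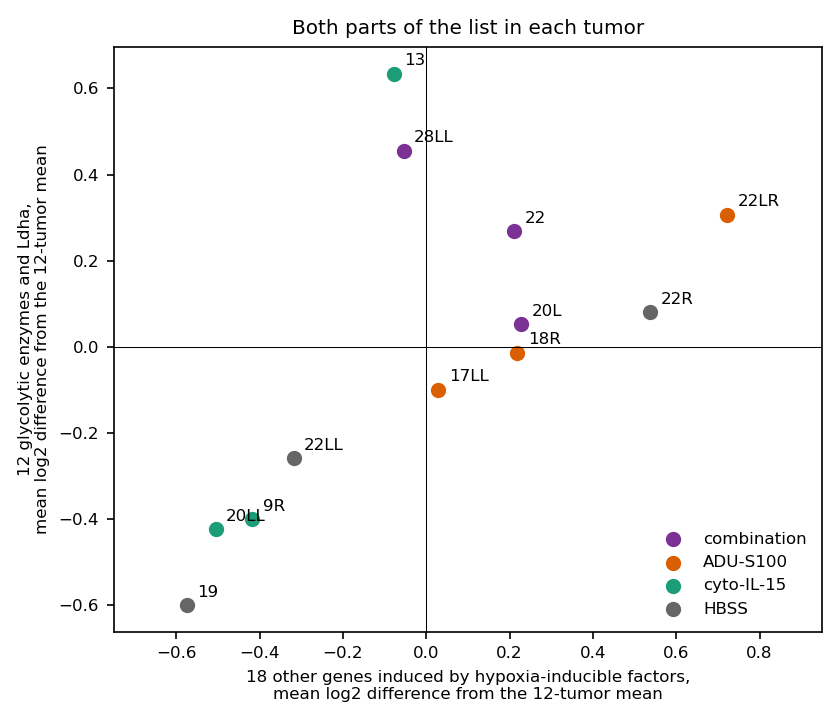
Mean log2 difference from the 12-tumor mean of 12 glycolytic enzymes and Ldha (vertical) against that of 18 other genes induced by hypoxia-inducible factors (horizontal), 1 point a tumor, colored by group and labelled with the tumor tag. HBSS tumor 19 lies lowest on both axes, HBSS tumor 22R and ADU-S100 tumor 22LR lie farthest right, and tumors 13 and 28LL lie highest with horizontal values near 0.

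Gene by gene, the split in tumor 13 was partial. Its Gapdh of 3759 CPM, Tpi1 of 1004 CPM and Hk2 of 209 CPM were the highest of the 12 tumors, and Hif1a, at 174, 506 and 166 CPM in the cyto-IL-15 tumors, was highest there too. In the same tumor Adm had 82 counts, 1.32 CPM, against 7.19 and 7.32 CPM in the other cyto-IL-15 tumors, and Egln3, Ankrd37, Ddit4 and Epas1 were the lowest of all 12. Other targets went the opposite way in tumor 13: Car9 at 8.90 CPM, Slc16a3 at 287 CPM and Egln1 at 141 CPM were the highest of the 12 tumors. The average of its other targets therefore joins genes that were high with genes that were low. The ratio of Ldha to Ldhb, the lactate-forming over the lactate-consuming subunit in TPM, was 6.18, 8.99 and 44.0 in the combination tumors, 7.69, 5.70 and 6.77 in the ADU-S100 tumors and 4.04, 109 and 4.65 in the cyto-IL-15 tumors, against 3.65, 4.83 and 6.72 in the HBSS tumors. Tumors 13 and 28LL stood out here as well. In tumor 13 the epithelial markers were the highest of all tumors (0.0560% of counts, with Krt19 at 497 CPM), fibroblast and matrix markers took 1.55% of counts, against 1.31 to 3.39% in the other 11 tumors, and Myh4, a fast muscle myosin, was at 0 counts. The part of its cell makeup in these values was not tested.

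Ratios within an isozyme pair do not depend on library scaling. Slc16a3 over Slc16a1, the high-capacity lactate exporter over the general carrier, in TPM, was 3.55, 3.70 and 1.88 in the combination tumors, 3.14, 3.50 and 4.11 in the ADU-S100 tumors and 1.92, 2.97 and 1.41 in the cyto-IL-15 tumors, against 1.33, 2.22 and 1.76 in the HBSS tumors. All ADU-S100 tumors lay above all HBSS tumors, whereas tumor 28LL fell inside the HBSS range. Hk2 over Hk1, the inducible over the constitutive hexokinase, was 0.565, 0.617 and 1.13 in the combination tumors, 0.652, 0.498 and 0.627 in the ADU-S100 tumors and 0.604, 1.35 and 0.490 in the cyto-IL-15 tumors, against 0.455, 0.563 and 0.688 in the HBSS tumors, with tumors 13 and 28LL highest and the rest close together. Egln3 over Egln1 was 2.36, 1.70 and 0.752 in the combination tumors, 1.21, 1.65 and 1.87 in the ADU-S100 tumors and 1.08, 0.442 and 1.07 in the cyto-IL-15 tumors, against 1.17, 1.59 and 1.38 in the HBSS tumors, lowest in these same tumors. Isozymes known from muscle did not move as 1 group. Pgam2, the muscle phosphoglycerate mutase, was highest in 28LL, which had the most muscle marker RNA, and measured 1.82, 10.1 and 50.6 CPM in the combination tumors, 17.8, 7.14 and 2.51 in the ADU-S100 tumors, 7.35, 2.39 and 4.99 in the cyto-IL-15 tumors, against 1.33, 1.43 and 1.87 in the HBSS tumors. Eno3, the muscle enolase, was highest in tumor 13, which had the least muscle marker RNA, and measured 28.2, 47.5 and 164 CPM in the combination tumors, 71.0, 36.1 and 27.3 in the ADU-S100 tumors, 33.7, 330.0 and 25.6 in the cyto-IL-15 tumors, against 18.4, 21.002 and 41.7 in the HBSS tumors. For Pgam2 the log2 fold changes against HBSS were 3.79 in combination, 2.61 in ADU-S100 and 1.69 in cyto-IL-15 tumors (adjusted p = 0.207, 0.0891 and 0.898, edgeR).

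Genes of the same pathways outside the list were counted in ADU-S100 against HBSS tumors at an adjusted p under 0.05 in edgeR, a rule by which 3.78% of all genes rose and 2.41% fell. Of 15 tested components of the HIF system 1 rose, Cited2, a competitor of HIF for its coactivator, at 75.4, 77.2 and 70.5 CPM in the ADU-S100 tumors, against 51.9, 45.7 and 58.8 in the HBSS tumors (log2 fold change 0.53, SE 0.12, adjusted p = 0.0419). Of 22 tested glycolysis isozymes and regulators 2 rose and 1 fell. Hk3, the hexokinase of myeloid cells, rose, at 39.7, 43.7 and 50.8 CPM in the ADU-S100 tumors, against 25.9, 19.2 and 27.3 in the HBSS tumors (log2 fold change 0.91, SE 0.16, adjusted p = 0.0163). Slc16a7, a high-affinity monocarboxylate importer, fell, at 3.24, 3.79 and 3.59 CPM in the ADU-S100 tumors, against 9.40, 6.89 and 9.23 in the HBSS tumors (log2 fold change -1.25, SE 0.19, adjusted p = 0.0100). Fbp2, the muscle fructose bisphosphatase, rose (adjusted p = 0.0170): it had 87, 34 and 20 counts in the ADU-S100 tumors, against 0, 1 and 1 in the HBSS tumors. Beside it, 11 of the 20 muscle fiber markers rose, and their part in its level was not tested.

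Of 43 other HIF target genes, 2 rose, a share near that of all genes. Plin2, which coats lipid droplets, measured 166, 177 and 339 CPM in the ADU-S100 tumors, against 78.9, 116 and 93.3 in the HBSS tumors (log2 fold change 1.26, SE 0.29, adjusted p = 0.0498, edgeR), and Fos, an immediate early transcription factor, measured 20.6, 18.1 and 24.01 CPM in the ADU-S100 tumors, against 10.1, 11.5 and 11.9 in the HBSS tumors (log2 fold change 0.92, SE 0.15, adjusted p = 0.0113, edgeR). The median log2 fold change of the 43 was 0.11, against 0.03 over all genes, with 24 above 0. Of 29 genes of pyruvate entry and the citric acid cycle 1 fell, the pyruvate dehydrogenase phosphatase Pdp2 (log2 fold change -0.52, SE 0.12, adjusted p = 0.0440, edgeR), and of 34 oxidative phosphorylation subunits 1 rose, Ndufa1 (log2 fold change 0.65, SE 0.15, adjusted p = 0.0405, edgeR), with 28 above 0 and a median of 0.21. Over all genes 53.1% were above 0, with a median of 0.03. In combination and cyto-IL-15 tumors against HBSS no gene of these lists passed the test. Beside these, 5 of 11 tested neutrophil markers rose in ADU-S100 tumors, and 9 of the 11 had a log2 fold change above 0 and 2 below. S100a8 was at 3.21, 2.38 and 8.83 CPM in the ADU-S100 tumors, against 0.164, 0.231 and 0.231 in the HBSS tumors. The summed share of all 15 neutrophil markers did not rise. It was 0.0705, 0.0817 and 0.0739% of counts in the ADU-S100 tumors, against 0.0781, 0.0766 and 0.0718% in the HBSS tumors. Of 15 macrophage markers 5 rose and 3 fell. The part of neutrophils and macrophages in the levels of Hk3, Plin2 or the 33 genes was not tested.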

How the data were processed

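Bulk RNA-seq of 12 tumors was analysed from the deposited whole-number count per gene and tumor, made by the authors per the labels with bcl2fastq 2.20, Trimmomatic 0.36, STAR 2.5.2b and featureCounts of Subread 1.5.2 on mouse GRCm38 (also called mm10); strand setting and handling of reads with several matches are not given in the sources used here. Symbols were matched by gene ID to a reference list of gene names, with RefSeq synonyms for listed symbols not found there. Gene types came from GENCODE M21. The 33 genes, the other lists and the tests were chosen with earlier results of these data known.

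Each pair of groups was fitted on its own 6 tumors, and the interaction on all 12, with edgeR 4.0.16 in R 4.3.3 (filterByExpr with minimum count 10 and minimum total 15, TMM scaling, robust quasi-likelihood test, Benjamini-Hochberg adjustment over all genes), checked on simulated counts. Levels are TMM-scaled CPM over the 12 tumors, TPM used the files' gene lengths, and 0.5 CPM was added before log2 averages. Per-tumor values were given for every called member and the 3 members with the smallest p in each direction against HBSS, for other members chosen after their values were seen, and for up to 4 genes of each other list at adjusted p under 0.05. Alternatives were other scalings, no filter, all 12 or 10 tumors, a muscle covariate, DESeq2 1.42.0, limma 3.58.1 (voom with quality weights) and leaving out each tumor. Every tumor has its own tag, read here as that of 1 mouse, so replicates are taken as animals.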

Additional observations from a re-analysis of the deposited data

How the results depend on the processing

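In ADU-S100 against HBSS tumors, where 1 of the 33 genes was called, 0 were called with all 12 tumors in 1 fit (0 of all 20132 genes) or with the muscle covariate (1 higher and 1 lower of 20132) and 3 with voom (Slc16a3, Car9 and Angptl4; 626 higher and 223 lower of 18911); leaving out each tumor gave 0 to 1. DESeq2 on all 12 tumors also called 1 (259 higher and 67 lower of 18480 genes), but it was Angptl4 and not Car9, and without HBSS tumor 22R the 1 was again Angptl4. With no fold threshold, voom passed 5 of the 33 in ADU-S100 against HBSS tumors (Slc16a3, Aldoa, Pkm, Car9 and Angptl4). DESeq2 on the 6 tumors passed 4 by that rule (Slc16a3, Aldoa, Pkm and Car9), and edgeR with all 12 tumors in 1 fit passed 0. The share of all genes by that rule was not counted for these fits. In the other comparisons 0 of the 33 were called in edgeR as first fitted. Combination against HBSS gave 1 with voom (Slc16a3; 645 higher and 278 lower of 18565 genes). ADU-S100 against cyto-IL-15 gave 1 with no filter (Angptl4; 70 higher and 3 lower of 38432 genes), 1 with the 10 tumors other than 13 and 28LL (Vegfa; 149 higher and 84 lower of 20675 genes), 3 with DESeq2 on its 6 tumors (209 higher and 61 lower of 18811), 2 with DESeq2 on all 12 (Adm and Angptl4; 122 higher and 73 lower of 20848), 1 with voom (140 higher and 43 lower of 18708) and 0 to 1 when each tumor was left out, the 1 being Vegfa without tumor 13. Combination against cyto-IL-15 gave 1 with DESeq2 on its 6 tumors (100 higher and 11 lower of 19692 genes) and 1 with DESeq2 on all 12 (339 higher and 100 lower of 19267), Ankrd37 in both, and 0 in the 4 tumors left without 13 and 28LL, a setting chosen after seeing the data. The other 3 counts were 0 under every alternative run. No called gene changed direction. The muscle covariate moved the median log2 fold change of the 33 against HBSS. With it, the median was 0.64 in ADU-S100 (32 genes above 0), 0.79 in combination (30 above 0) and 0.20 in cyto-IL-15 tumors (24 above 0). The same 12-tumor fit without it gave 0.32, 0.34 and -0.03. Over all genes the medians with it were 0.05, 0.02 and 0.03. No paired analysis was possible because every mouse tag occurs once and no pair of groups has more than 1 leading tag number in common. There were 3 tumors a group and 1 tumor line, and the cause of the lost and gained calls was not tested.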
